A study of Mus musculus with 24 samples.

Results

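The genes described here encode the zona pellucida and other proteins of the mouse egg surface. They are the 8 genes *Zp1*, *Zp2*, *Zp3*, *Astl*, *Izumo1r*, *Cd9*, *Oosp1* and *Oosp2*, chosen by name from the 16572 gene names of the expression table, and all 8 were found. Expression was measured by RNA-seq of class IV oocytes, which had grown the largest in a follicle-free culture, in 2 libraries grown in 5% O2 (IV 5% O2) and 2 grown in 20% O2 (IV 20% O2). All oocytes came from ovaries of mice at day 7 after birth, labelled C57BL/6 Barb, while the study's methods give a C57 Black6 and SV129 background and its results an F1 on C57BL6/Babr. No knockout, transgene or drug was used in these 4 libraries. Culture lasted 9 days for IV 5% O2 and 14 days for IV 20% O2, and the medium of the 5% O2 cultures was changed more often, so oxygen, culture time and feeding cannot be told apart. The labels give both groups a diameter of 60 to 70 μm, although the methods place the IV 20% O2 oocytes in a slightly smaller range. Each library was made from a pool of oocytes that kept few granulosa cells and grew above theca-like cells of the same digest.

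The zona pellucida is the glycoprotein coat that a growing oocyte secretes around itself. In the mouse it is built from ZP1, ZP2 and ZP3, of which ZP2 and ZP3 form the filaments and ZP1 crosslinks them. Sperm bind the coat and then meet JUNO (encoded by *Izumo1r*) and the tetraspanin CD9 on the egg membrane, and after fertilization the protease ovastacin (*Astl*) is released from cortical granules and cleaves ZP2, which ends sperm binding. *Oosp1* and *Oosp2* encode secreted proteins of the oocyte. The zona genes are known targets of FIGLA, a basic helix-loop-helix factor that pairs with E-proteins and binds E-boxes.

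The authors deposited 1 column per condition, so the 2 libraries of a condition are not separated. No value here has an SD, a replicate check or a p-value, and a difference between the columns is a description of these pooled libraries. Values are RPM, the reads of a gene scaled to the size of its column, and where 2 values stand together without a group, the first is IV 20% O2 and the second IV 5% O2. Totals of 132185257 and 40875370 reads for IV 5% O2 and IV 20% O2 were worked out from the RPM of 1 read. They are not reported totals. Of these reads, 109629353 and 29754908 fell on genes. Each interval is an exact 95% Clopper-Pearson one, made from reads, and covers counting error only, since reads without molecular identifiers are not independent molecules. For a log2 difference, the interval is on the ratio of reads scaled by depth, without the 1 RPM added to the values. A gene was called different when it lay at least 2-fold apart on log2(RPM + 1), among the 14704 genes that averaged 1 RPM or more. All 8 genes passed that filter, each with at least 2872 reads in either column.

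Promoter sequences are shown first for 4 of these genes, because E-boxes are the elements through which FIGLA acts on zona genes. They are the 250 bases before the RefSeq start site on GRCm38.p6, read 5′ to 3′ on the gene's strand, with E-boxes (CANNTG) in capitals. The *Zp3* promoter (plus strand) is given for a zona gene that was over 2-fold lower in IV 5% O2, *Izumo1r* (minus strand) for the gene that was higher, and *Oosp1* and *Oosp2* (minus strand) for adjacent genes with nearly the same difference.
Zp3, chr5:135979855-135980104: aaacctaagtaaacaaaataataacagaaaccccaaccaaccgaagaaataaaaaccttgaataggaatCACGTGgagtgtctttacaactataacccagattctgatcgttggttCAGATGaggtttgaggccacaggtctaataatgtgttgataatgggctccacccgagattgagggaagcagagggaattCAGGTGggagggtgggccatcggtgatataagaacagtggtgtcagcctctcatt
Izumo1r, chr9:14903768-14904017: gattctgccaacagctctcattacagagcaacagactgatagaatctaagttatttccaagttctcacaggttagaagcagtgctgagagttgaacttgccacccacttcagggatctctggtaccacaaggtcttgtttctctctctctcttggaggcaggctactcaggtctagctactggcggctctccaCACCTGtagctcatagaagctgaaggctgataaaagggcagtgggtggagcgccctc
Oosp1, chr19:11691052-11691301: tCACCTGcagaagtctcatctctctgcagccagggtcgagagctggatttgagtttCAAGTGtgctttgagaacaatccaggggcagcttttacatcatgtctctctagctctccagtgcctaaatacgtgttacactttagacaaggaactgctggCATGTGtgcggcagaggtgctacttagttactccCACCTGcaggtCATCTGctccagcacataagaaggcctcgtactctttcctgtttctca
Oosp2, chr19:11660560-11660809: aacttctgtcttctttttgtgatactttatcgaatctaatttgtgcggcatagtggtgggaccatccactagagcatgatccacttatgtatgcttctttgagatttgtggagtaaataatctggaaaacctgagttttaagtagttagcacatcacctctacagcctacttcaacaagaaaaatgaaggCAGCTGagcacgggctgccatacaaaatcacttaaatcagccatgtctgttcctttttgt

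The *Zp3* promoter holds 3 E-boxes, which begin 181, 134 and 55 bases before the start, and *Oosp1* holds 5. *Izumo1r* and *Oosp2* hold 1 E-box each, 57 and 60 bases before the start. *Cd9* has 3, and *Astl*, for which RefSeq gives 2 start sites, has none before the upstream start and 3 before the downstream one. The promoter sequences used hold no entry for *Zp1* and *Zp2*, so these 2 zona genes were not searched for motifs. At least 1 E-box is found in 66.2% of all 32841 promoters of this length, on either strand, with a median of 1, so holding an E-box is common. The form CAGGTG, which was picked out after the sequences had been read and includes its reverse complement CACCTG, lies in 5 of these 7 promoters and in 17.2% of all promoters. It is absent from *Oosp2* and from the upstream promoter of *Astl*, and it is 1 of the forms covered by CANNTG. The E-box form CACGTG, found in 6.02% of all promoters, occurs in that of *Zp3* alone among the 7, and it contains the core of the hypoxia response element, ACGTG. This core lies in 16.6% of all promoters, and among the 7 it is in those of *Zp3*, where both matches belong to the CACGTG, and *Oosp1*, where it begins 124 bases before the start. Neither TAATTG, a NOBOX motif found in 7.17% of all promoters, nor the TATA box form TATAAA, found in 12.4%, occurs in any of the 7. A match of letters does not show binding.

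*Zp2* and *Zp3* were the 2 genes of the 8 that were at least 2-fold apart, both lower in IV 5% O2. Among all genes tested 9.22% were at least 2-fold lower, and 6.34% among the 4037 genes that averaged 50 RPM or more, as each of the 8 genes did. Any lower value was seen for 7 of the 8, against 37.4% of all genes tested and 34.9% of those at 50 RPM or more. None was at least 2-fold higher, against 18.7% and 13.5%. The median log2 difference of the 8 genes (IV 5% O2 minus IV 20% O2) was -0.43, while that of all genes tested was 0.26. Since the 8 genes were proposed with earlier results of these data known, the zona genes' lower values are not independent support for a shared direction.

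*Zp2*, which encodes the glycoprotein that sperm bind and that ovastacin cleaves, lies on the minus strand of chromosome 7 (120126772 to 120145291, GRCm38). It was read at 3807 and 1537 RPM, from 155595 and 203133 reads. On the log2(RPM + 1) scale the difference was -1.31 (interval -1.32 to -1.30), a 2.48-fold lower value in IV 5% O2, and 5.95% of all genes tested had a lower log2 difference. *Zp3*, the gene of the other filament protein, lies on the plus strand of chromosome 5 (135980099 to 135988624). Its level was 1501 and 690 RPM, which is 2.17-fold lower, or -1.12 in log2 (interval -1.14 to -1.11), and 7.65% of genes had a lower difference. *Zp1*, the gene of the crosslinking protein on the minus strand of chromosome 19 (10914287 to 10920632), was less far apart, with 689 and 499 RPM. That is 1.38-fold lower, and 20.2% of genes had a lower difference.

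The 3 zona genes thus differed by unequal amounts, and their mixture was not the same in both columns. Levels of different genes were compared per kb of exon, with the union of exons in GENCODE vM21. In IV 20% O2, 48.5% of the summed zona level per kb was *Zp2*, 39.4% *Zp3* and 12.1% *Zp1*. In IV 5% O2 the shares were 42.2%, 39.0% and 18.8%. The level of *Zp2* per kb was 4.02 times that of *Zp1* (interval 3.97 to 4.07) in IV 20% O2 and 2.24 times (2.22 to 2.26) in IV 5% O2. For *Zp3* against *Zp1* the ratios were 3.26 (3.22 to 3.31) and 2.07 (2.05 to 2.09). The filament pair was closer to constant, with a *Zp2* to *Zp3* ratio of 1.23 (1.22 to 1.24) in IV 20% O2 and 1.08 (1.07 to 1.09) in IV 5% O2. These ratios are taken within a column, so they do not depend on a factor that scales a whole column, and for each of the 3 pairs the counting intervals of the columns do not overlap.

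Reads on the 3 zona genes made up 0.824% of all reads counted on genes in IV 20% O2 (interval 0.820% to 0.827%) and 0.329% in IV 5% O2 (0.328% to 0.330%). The share was 2.51 times larger in IV 20% O2. For the 5 other genes together it was 0.193% and 0.134%, 1.44 times larger in IV 20% O2. Against *Gdf9*, the gene of an oocyte-secreted growth factor, *Zp2* per kb was at 1.01 in IV 20% O2 and 0.488 in IV 5% O2, and *Zp1* was at 0.252 and 0.218. In pooled RNA, fewer oocytes expressing a gene and less of its RNA per oocyte cannot be told apart.

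*Astl*, the ovastacin gene on the plus strand of chromosome 2 (127338639 to 127357651), was at 621 and 476 RPM. Its log2 difference of -0.38 (interval -0.40 to -0.36) was close to that of *Zp1*, -0.46 (-0.48 to -0.44), but their intervals do not overlap. *Astl* per kb stood at 0.174 of *Zp2*, the gene of its substrate, in IV 20% O2 and at 0.330 in IV 5% O2, since *Zp2* was the further apart of the pair.

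The genes of the egg membrane went opposite ways. *Izumo1r*, the gene of the sperm receptor JUNO on the minus strand of chromosome 9 (14885814 to 14903949), was the only 1 of the 8 with a higher value in IV 5% O2. It was at 70.3 and 113 RPM, from 2872 and 14969 reads, a log2 difference of 0.68 (interval 0.63 to 0.75), or 0.42 above the median gene. This is under 2-fold, and 69.4% of all genes tested had a lower difference. *Cd9*, the tetraspanin gene needed for fusion with sperm, lies on the minus strand of chromosome 6 (125460266 to 125494791). Its level was 106 and 57.5 RPM, from 4349 and 7607 reads, a log2 difference of -0.88 (interval -0.94 to -0.83). As a result, the ratio of *Izumo1r* to *Cd9* per kb was 0.582 (interval 0.555 to 0.610) in IV 20% O2 and 1.73 (1.69 to 1.78) in IV 5% O2. The value of *Cd9* is less certain than the others. In its exons 12.7% of windows of 50 bases and 3.23% of windows of 100 bases, the read length, occur more than once in the genome, whereas no window of the other 7 genes does. *Cd9* also shares 218 exonic bases with *Gm26728* on the opposite strand, which was at 4.92 and 6.53 RPM in IV 20% O2 and IV 5% O2, and the use of strand in counting is not given in the sources used here.

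*Oosp1* and *Oosp2* lie next to each other on the minus strand of chromosome 19 (11667460 to 11691150 and 11647279 to 11660559), 6.9 kb apart. *Oosp1* was at 482 and 369 RPM, and *Oosp2* at 124 and 94.1 RPM. Their log2 differences, both -0.39, could not be told apart at this depth, with intervals of -0.41 to -0.36 and -0.44 to -0.35. Per kb, *Oosp1* was 2.72 times *Oosp2* in IV 20% O2 (interval 2.63 to 2.80) and 2.73 times in IV 5% O2 (2.68 to 2.79). On the other side of *Oosp1*, 5.9 kb away and on the plus strand, the related gene *Oosp3*, named here for its place, was at 98.6 and 104 RPM, a log2 difference of 0.07. Of the 14 genes of the table that flank the 8 genes, 13 were tested, and 3 of these had a lower IV 5% O2 value, against 37.4% of all genes tested. The 13 had a median log2 difference of 0.19, with a range from -2.14 at *Vwf*, which flanks *Cd9*, to 1.15 at *Tmem159*, which flanks *Zp2*.

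Ranked per kb of exon, the first 6 places were held by the same genes in both columns, in the order *Zp2*, *Zp3*, *Oosp1*, *Zp1*, *Astl* and *Oosp2*. In IV 20% O2 their levels ran from 1397 RPM per kb for *Zp2* to 183 for *Oosp2*, and in IV 5% O2 from 564 to 139. The last places changed hands, with *Cd9* at 52.1 and *Izumo1r* at 30.3 RPM per kb in IV 20% O2, and *Izumo1r* at 48.8 and *Cd9* at 28.2 in IV 5% O2. Each neighbour in either order differed from the next by more than the counting error, and the closest pair was *Zp2* and *Zp3* in IV 5% O2. Among all annotated genes of the table, *Zp2* held rank 6 per kb in IV 20% O2 and rank 25 in IV 5% O2, and *Zp3* ranks 9 and 29. *Oosp1* was at ranks 34 and 46, *Zp1* at 54 and 75, *Astl* at 83 and 110, and *Oosp2* at 112 and 166. *Cd9* was at ranks 646 and 1733, while *Izumo1r* went the other way, from 1306 to 790.

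**Figure D1:**
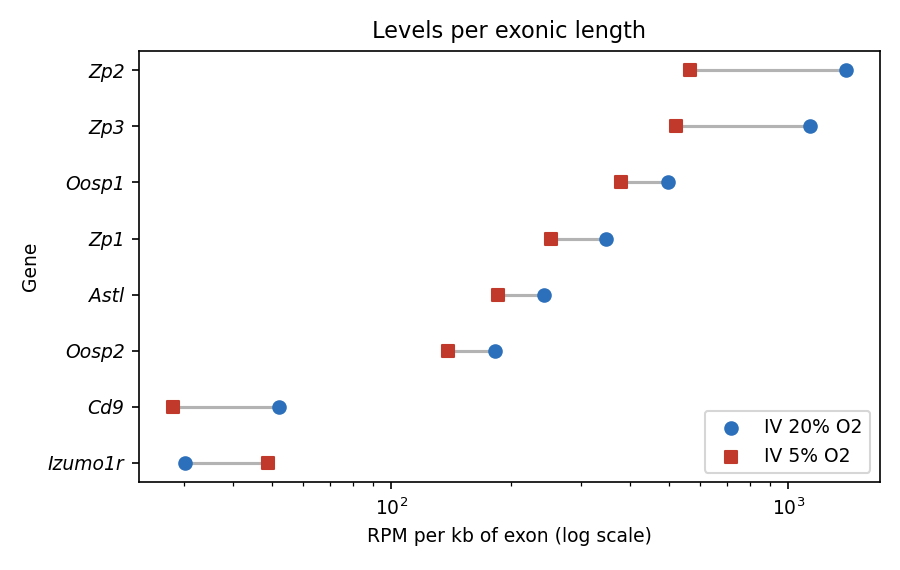
Level of each gene in RPM per kb of exon (log axis) in the pooled IV 20% O2 column (circles) and the pooled IV 5% O2 column (squares). Of the 8 genes, 7 have the square to the left of the circle, and *Izumo1r* has it to the right.

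**Figure D2:**
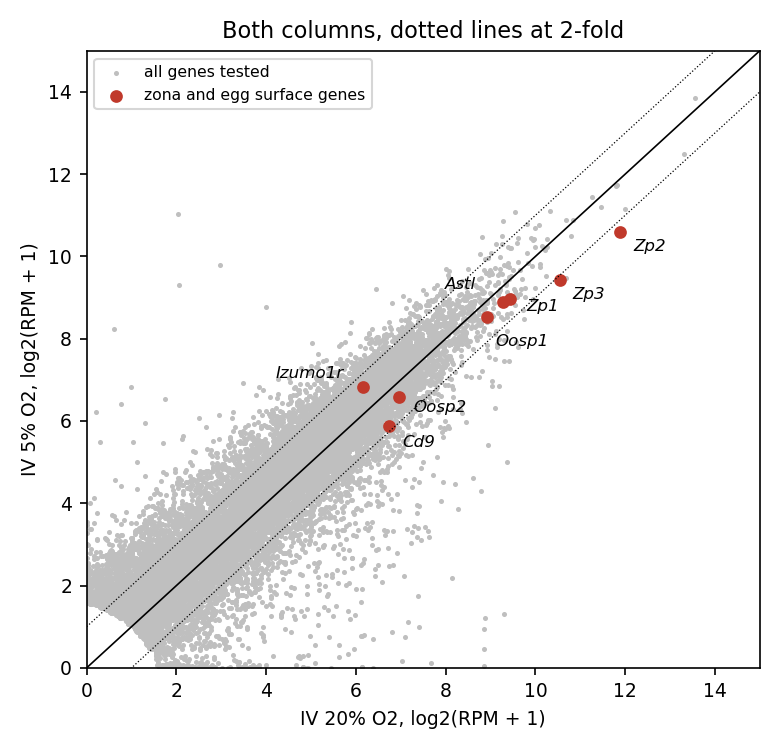
Every gene tested by its log2(RPM + 1) in the pooled IV 20% O2 column (x axis) and the pooled IV 5% O2 column (y axis), with the solid line at equality and dotted lines at 2-fold. The zona and egg surface genes are the large points, of which *Zp2* and *Zp3* lie beyond the lower 2-fold line.

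With the columns scaled by their median ratio, by quantiles or to the reads counted on genes, the median of all genes moved from 0.26 to -0.04, 0.06 and 0.10, and the directions of all 8 genes stayed as they were. *Zp2* ranged from -1.63 to -1.31 and *Zp3* from -1.44 to -1.12 over these scalings and the deposited one. *Cd9* passed 2-fold with each of the 3 scalings, at -1.19, -1.06 and -1.06, which makes 3 of the 8 genes at least 2-fold lower. The share of all genes at least 2-fold lower was then 13.9%, 12.7% and 12.2%. *Izumo1r* was at 0.36, 0.49 and 0.50.

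**Figure D3:**
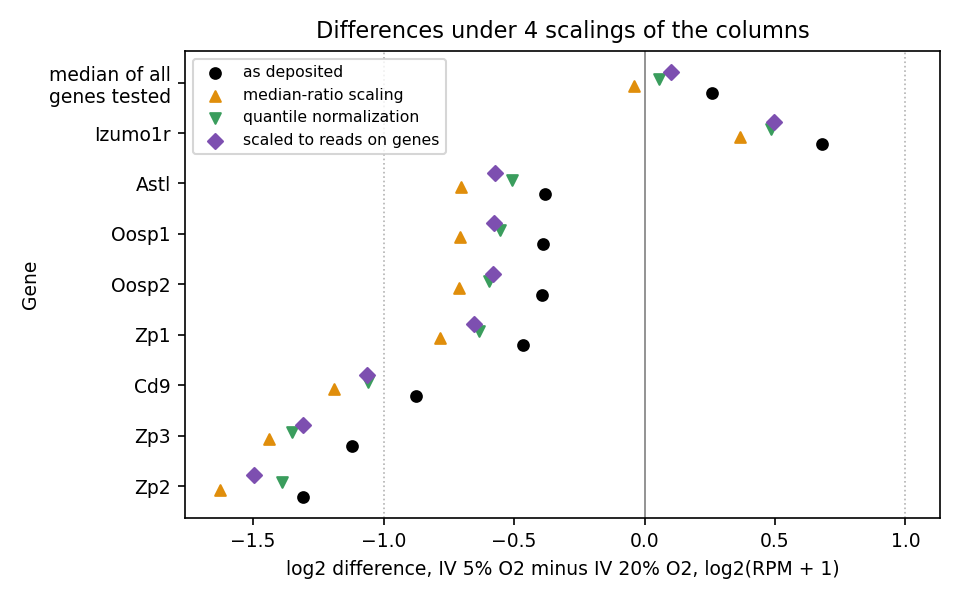
Log2 difference (IV 5% O2 minus IV 20% O2, on log2(RPM + 1)) of each gene, and the median of all genes tested, as deposited and with 3 other scalings of the columns. Dotted lines mark 2-fold. *Izumo1r* stays above 0 and the 7 other genes below it, and *Cd9* crosses -1 when the columns are rescaled.

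The 8 genes have short transcripts, with 0.678 kb of exon in *Oosp2* up to 2.72 kb in *Zp2*, where the median gene tested had 4.07 kb. Short exons went with lower values in IV 5% O2 in part of the table. Among genes averaging 50 RPM or more, the median log2 difference was -1.07 in the 72 with under 1 kb, where *Oosp1* and *Oosp2* belong, and 0.17 in the 296 with 1 to 2 kb, where *Zp1* and *Zp3* belong. It was 0.36 in the 453 with 2 to 3 kb, which hold the other 4. *Oosp1* and *Oosp2*, at -0.39, were above that median of their length, but below the median of 0.05 over all 923 genes with under 1 kb of exon, whatever their level. Among the abundant genes, *Zp3* lay below the lower quartile of its length, -0.52, and *Zp2*, *Astl* and *Cd9* below that of theirs, -0.18. Of the 5154 genes with under 3 kb of exon, whatever their level, 14.0% were at least 2-fold lower, 20.9% at least 2-fold higher and 39.6% lower by any size. Of the 821 that also averaged 50 RPM or more, 13.9% were at least 2-fold lower, 17.5% at least 2-fold higher and 39.6% lower by any size. The part of length in the differences was not tested. Exonic GC content ran from 42.0% in *Oosp1* and *Oosp2* to 56.1% in *Zp3*, around the median of 48.9%.

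Of 16 glycosylation enzyme genes, 12 are in the table and 10 were tested, of which 3 had a lower value in IV 5% O2, against 37.4% of all genes tested. At least 2-fold higher was 1 of the 10, against 18.7%, and at least 2-fold lower was 0, against 9.22%. Their median log2 difference was 0.52 against 0.26 for all genes, and 0.22 against -0.04 with median-ratio scaling. *Mgat1*, which starts complex N-glycans, was at 31.5 and 83.2 RPM, a log2 difference of 1.37. *Mgat2*, the next enzyme of that path, was at 16.3 and 33.2 RPM, and *Galnt1*, which starts O-glycans, at 52.9 and 70.6 RPM. Of the 4 proprotein convertase genes, none was 2-fold apart, where 9.22% of all genes were at least 2-fold lower and 18.7% at least 2-fold higher. Their median of 0.21, against 0.26 for all genes, turned to -0.053 after quantile normalization and -0.059 after median-ratio scaling. *Furin*, a protease of the secretory path that can cleave zona precursors, was at 171 and 185 RPM. *Pcsk6* had a log2 difference of 0.39, and *Pcsk5* was at 1.30 and 1.86 RPM (0.32).

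For the docking and release of cortical granules, the route by which ovastacin leaves the egg, 10 of 12 genes were tested and none was at least 2-fold lower, against 9.22% of all genes tested, or at least 2-fold higher, against 18.7%. A lower value of any size was seen for 1 of the 10, against 37.4%. Their median of 0.50 was 0.19 with median-ratio scaling. *Myo5b*, a motor of vesicle transport, was at 649 and 664 RPM. *Nsf*, the ATPase that recycles fusion complexes, was at 538 and 468 RPM, and *Calr*, a calcium-binding chaperone, at 244 and 460 RPM. *Syt1*, a calcium sensor of exocytosis, was low, at 4.01 and 8.07 RPM.

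Relatives and partners of CD9 went both ways. Of 17 tetraspanin and partner genes, 12 were tested, with 4 at least 2-fold higher in IV 5% O2 (18.7% of all genes tested) and 2 at least 2-fold lower (9.22% of all genes). *Cd37*, 1 of the 4, had 1 read in IV 20% O2 and was tested because of its 2.44 RPM in IV 5% O2. The count of 4 is therefore not read against the 18.7%. The median of the 12, *Cd37* included, was 0.32, against 0.26, and is not read either. Among genes averaging 5 RPM or more, the median of the list was 0.19, against 0.23 for all genes. By any size, 7 of the 12 were higher in IV 5% O2 and 5 lower, against 37.4% of all genes lower. *Tspan9* was at 34.5 and 168 RPM, a log2 difference of 2.25, and *Igsf8*, which encodes an immunoglobulin partner of CD9, was at 2.23 and 15.8 RPM. *Ptgfrn*, the gene of another CD9 partner, was lower, at 75.1 and 46.3 RPM (-0.69). The 2 genes at least 2-fold lower were *Cd151* (35.9 and 13.2 RPM, -1.38) and *Tspan4* (9.83 and 3.96 RPM, -1.13). The most abundant members were *Tspan14* (log2 difference 0.69) and *Tspan3* (153 and 209 RPM, log2 difference 0.45). Integrin subunit genes numbered 6 of 7 tested, with 1 at least 2-fold higher, against 18.7% of all genes, which was *Itga9* at 81.9 and 179 RPM. *Itga6* was at 201 and 310 RPM, and *Itgb3* at 30.5 and 16.1 RPM. Neither of 2 other folate receptor genes, the family of *Izumo1r*, is in the table. Of 10 other genes of zona-domain proteins 4 were tested, the most abundant being *Tgfbr3*, a co-receptor gene for TGF-beta, at 30.3 and 47.0 RPM. *Dmbt1* was at 3.13 and 13.9 RPM, and *Umod* was at 0 reads and 2.03 RPM. Among 5 other astacin genes 2 were tested, *Tll1* at 17.5 and 35.3 RPM and *Mep1b* at 1.10 and 6.51 RPM.

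The genes of FIGLA and its E-protein partners were not apart in 1 direction. *Figla* was at 40.5 and 28.3 RPM, a log2 difference of -0.50. *Tcf12* was at 68.4 and 44.0 RPM (-0.62), *Tcf4* at 18.9 and 5.07 RPM (-1.71), and *Tcf3* at 39.9 and 98.9 RPM (1.29). The sum of the 4, not corrected for length, was 168 and 176 RPM, while *Figla* alone was at 48.5 and 33.9 RPM per kb.

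The cells were checked against their label. All 10 oocyte markers were present in both columns, summing to 8459 and 8204 RPM, led by *Gdf9* (2805 and 2346 RPM) and *Nlrp5*, a maternal-effect gene (1823 and 1905 RPM), and 2 of them, *Kit* (448 and 148 RPM) and *Oog1* (251 and 55.0 RPM), were at least 2-fold lower in IV 5% O2, against 9.22% of all genes tested and 6.34% of those at 50 RPM or more. The median of the 10, 0.04, turned negative under each of the 3 other scalings. Sperm-side partners, which oocytes should lack, reached 1.61 RPM at most, in 4 of 8 genes present in the table, at *Zpbp2* in IV 20% O2, which had no reads in IV 5% O2. *Izumo1*, the sperm ligand of JUNO, was at 1.17 and 0.817 RPM.

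Among markers of other cells of the ovary, those of theca and stroma had 5 of 6 tested at least 2-fold higher in IV 5% O2, but *Cyp11a1*, *Dcn*, *Vim* and *Postn* were under 1 RPM in IV 20% O2 and reached the tested set through their IV 5% O2 value, so that count is not read against the 18.7% of all genes. None of the 3 granulosa, 2 macrophage and 1 endothelial markers tested was 2-fold apart, where 18.7% of all genes were at least 2-fold higher and 9.22% at least 2-fold lower. Theca and stroma markers, 8 of 11 in the table, summed to 4.97 RPM in IV 20% O2, with *Col1a2*, *Dcn* and *Vim* at 0 reads, and to 38.4 RPM in IV 5% O2, with none at 0. *Cyp11a1*, a gene of steroid synthesis, was at 0.122 and 16.4 RPM, *Postn* at 0.367 and 5.25 RPM and *Fn1* at 2.30 and 4.94 RPM. These are low levels, and the median log2 difference of the list, 1.84, was 0.60 with a pseudocount of 5 RPM and 4.09 with one of 0.1 RPM. Granulosa markers, 5 of 9 in the table, summed to 29.015 and 38.673 RPM. *Nr5a2* was at 17.6 and 18.7 RPM, *Kitl* at 5.58 and 10.2 RPM and *Cyp19a1* at 5.70 and 9.12 RPM. *Fshr* was at 0.147 RPM and 0 reads, and *Inha* at 0 reads and 0.673 RPM. Macrophage markers, 3 of 5, summed to 21.1 and 17.9 RPM, with *Csf1r* at 15.0 and 9.28 RPM and *Cd68* at 6.14 and 7.18 RPM, and *Lyz2* had no reads in IV 20% O2. Endothelial markers, 2 of 4, summed to 32.7 and 47.2 RPM, nearly all of it *Pecam1*, while *Kdr* was at 0 reads and 1.30 RPM. The part of these cells in the differences was not tested.

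**Figure D4:**
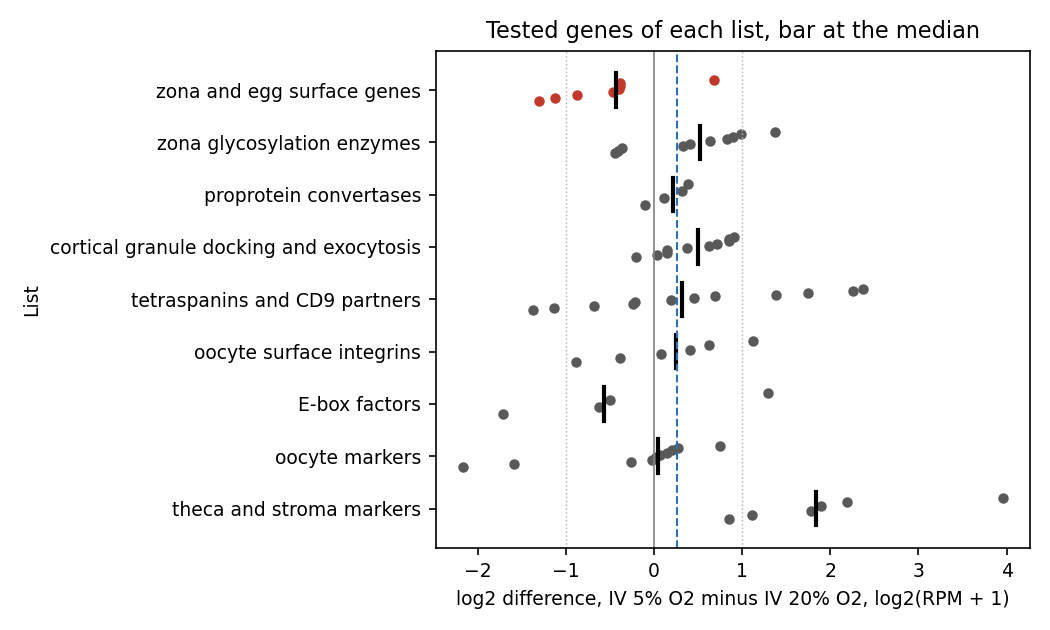
Log2 difference (IV 5% O2 minus IV 20% O2, on log2(RPM + 1)) of each tested gene in the zona and egg surface set and in 8 lists. Thick bars are medians, the dashed line is the median of all genes tested (0.26) and dotted lines mark 2-fold. The zona and egg surface genes have a median of -0.43, and 4 of the 6 theca and stroma markers were tested only through their IV 5% O2 value. The same holds for *Cd37* in the tetraspanin list.

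With 2 columns a pattern is a pair of levels, and many genes share a pair in the middle range but few at the top. The measure was the Euclidean distance on log2(RPM + 1) over the 2 columns. Genes named only by an identifier, such as Gm numbers, were left out. *Izumo1r* was nearest to *Rad17* and *Rbm22* (distances 0.00050 and 0.0043), *Oosp2* to *Pou2f1* (0.0098) and *Dym*, and *Cd9* to *Malat1* (0.016) and *Mars1*. *Zp1* was nearest to *Ermp1* (0.032) and *Kdm1b*, *Oosp1* to *Ankrd44* (0.044) and *Ttn*, and *Astl* to *Ddx3x* (0.071) and *Ermp1*. *Zp3* lay 0.13 from *Zbed3*, which was at 1634 and 715 RPM, and 0.55 from *Mtus1*. *Zp2* stood more alone, 0.57 from *Padi6* at 4072 and 2266 RPM and 0.75 from *Gdf9*.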

How the data were processed

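RNA-seq libraries of class IV oocytes were analysed, and RRBS and PBAT samples were not used here. Ribosomal RNA had been depleted and stranded dUTP libraries read from both ends for 100 bases. The authors mapped them to mm10 (GRCm38; TopHat2 2.0.9 and Trim Galore per the labels), counted over merged exons in SeqMonk and deposited log2 values, 1 column per condition. Linear values were whole multiples of 1 read in 99.9% or more of rows (within 0.05 reads), without the length correction that the study describes, so they were used as RPM. A gene listed at 0.9 of 1 read was set to 0. How libraries were combined is not given in the sources used here. The table's 1 further value column, matching no sample of the series, was not used.

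Gene names, motifs and lists were chosen with earlier results of these data known. Of each list, the 2 most abundant and the 2 tested genes with the largest absolute difference were named, all 4 E-box factors, and the 2 genes nearest each member. Cell type markers at 0 reads, flanking genes and *Cd37*, *Cd151*, *Tspan4* and *Ptgfrn* were named after their values were seen. For 18 names with several rows, the row with the highest mean was used. Exons came from GENCODE vM21 (16553 names matched) and promoters from RefSeq. Alternatives were pseudocounts of 0.1 and 5 RPM, a filter at 5 RPM or none, summed rows, longest transcripts, median-ratio scaling and quantile normalization. Scaling to reads on genes and the subsets by level and length were added after the data were seen. Scripts were tested on simulated data. Software was scipy 1.17.1 for intervals, numba 0.67.0 for sequence windows, pandas 2.3.3 and numpy 2.4.6 for tables and matplotlib 3.10.9 for plots, under Python 3.11.15.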

Additional observations from a re-analysis of the deposited data

How the results depend on the processing

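No paired analysis was possible because each condition is a pooled column without replicate numbers, and limma, the replicate block and leave-one-out could not be run for the same reason. The directions of the 8 genes held under each alternative run, and their order per exonic length with longest transcripts, the alternative run for it. The median log2 difference of the 8 genes, -0.43, was -0.62 after quantile normalization, -0.75 after median-ratio scaling and -0.62 when scaled to reads on genes. Genes at least 2-fold higher numbered 1202 with a pseudocount of 5 RPM, 1691 at 5 RPM or more, 1764 after quantile normalization and 1700 after median-ratio scaling, against 2753, and genes at least 2-fold lower numbered 706 with a pseudocount of 5 RPM, against 1356. Higher genes made up 67.0% of those 2-fold apart as deposited, 48.6% after quantile normalization, 45.6% after median-ratio scaling and 56.5% scaled to reads on genes. With median-ratio scaling the medians of all genes (-0.040), integrins (-0.044), proprotein convertases (-0.059) and oocyte markers (-0.28) turned negative. Quantile normalization did so for the convertases (-0.053) and oocyte markers (-0.11), and scaling to reads on genes for oocyte markers (-0.15). The cause was not tested. Depth limits the genes with few reads in the lists. Among the 8 genes, the counting intervals of *Oosp1* and *Oosp2* overlapped, and whether more reads would part them was not tested.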
